A study of Mus musculus with 6 samples.

Results

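Cyclic nucleotide and protein kinase A (PKA) signalling genes were followed in mural granulosa cells, which form the wall of the ovarian follicle, through the circular RNA (circRNA) that their exons form and the linear RNA read at the same junctions. Members were taken by symbol: every junction typed circRNA whose gene name begins with Adcy, Prkar, Prkac, Prkg, Rapgef, Akap or Pde, followed by a number where the family is numbered. The rule found 264 of 42381 circRNA, from 43 of 7867 gene names. They held 3233 of 479295 circRNA reads. The RNA came from 6 wild-type CF-1 mice, 21 days old when they were given 5 IU of PMSG, a gonadotropin that drives the growth of follicles. In the 4-h post-hCG group (n = 3), hCG, which acts on the luteinizing hormone receptor in place of the ovulatory surge, followed the PMSG by 46 h and cells were taken 4 h later. In the 0-h group (n = 3), cells were taken 46 h after PMSG with no hCG. Both groups were thus primed with PMSG. Each library was made from 1 mouse, so p-values measure the spread between mice.

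When luteinizing hormone or hCG binds its receptor, the stimulatory G protein turns on adenylyl cyclases, which make cyclic AMP. Cyclic AMP binds the regulatory subunits of PKA and frees its catalytic subunits, and it also acts through exchange factors for the small GTPase Rap. Phosphodiesterases break cyclic AMP and cyclic GMP down, and A-kinase anchoring proteins (AKAPs) hold PKA at particular places in the cell. Granulosa cells also supply cyclic GMP, which keeps the oocyte arrested until the surge.

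A circRNA forms by a back splice, in which an exon is spliced to one that lies before it in the gene. For each junction the deposited table gives the back-splice reads and a count of linear RNA at the ends of the same junction, on coordinates of GRCm38. In all 94 sets of 4 member junctions made of 2 starts and 2 ends, the linear counts were additive over the ends within a tolerance of 2 counts. Junctions of a gene that share an end therefore share linear reads and were not treated as replicates. The 4-h post-hCG libraries held 66593 to 89982 circRNA reads and the 0-h libraries 65994 to 91854. Junctions were found for all 11 granulosa markers looked up, with summed linear counts of 22858 to 26807 at 4-h post-hCG and 26049 to 32281 at 0-h. These sums are not scaled to library depth, come mostly from Inha, Inhba and Gja1 and hide shifts of single markers. They do not compare the granulosa content of the groups. Markers of other cells summed to 351 to 512 and 409 to 433 (6 of 7 oocyte markers), 205 to 262 and 257 to 408 (2 of 3 theca markers), 137 to 182 and 100 to 174 (6 of 6 endothelial markers), and 18 to 32 and 21 to 43 (3 of 4 leukocyte markers), each time at 4-h post-hCG and then at 0-h. Stromal and muscle markers (5 of 5) summed to 596 to 687 at 4-h post-hCG and to 716 to 985 at 0-h. The sums for other cells are not scaled to library depth either. They do not compare the content of such cells between the groups, and the part of such cells in the results was not tested. In RNA from a mass of cells, fewer cells of a type and less RNA per cell cannot be told apart.

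The member circRNA were spread unevenly over the 43 genes. Anchoring proteins gave 96 circRNA and 1381 reads from 10 genes, Rap exchange factors 36 circRNA and 877 reads from 5 genes, and genes with a phosphodiesterase symbol 78 circRNA and 592 reads from 14 genes. The PKA regulatory subunits gave 26 circRNA and 296 reads from 4 genes. Much less came from the 6 adenylyl cyclases (51 reads), the 2 PKA catalytic subunits (20 reads) and the 2 cyclic GMP-dependent kinases (16 reads). Rapgef4 (696 reads), Akap7 (604) and Akap10 (384) together held 52.1% of the member reads. Of the 264 circRNA, 81 had a single read in all libraries together, the median was 3 reads (also 3 over all circRNA), and 21 were read in all 6 libraries.

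All 264 member junctions were flanked by the splice site bases AG before the upstream exon and GT after the downstream exon in the GRCm38.p6 sequence. Both ends of 260 matched exons of 1 transcript of the named gene in GENCODE M21. The other 4 name Akap2 beside the neighbouring Palm2 and the readthrough gene Gm20459 and had 1 end each in an Akap2 exon. Of the 260, 239 held coding sequence only, 20 held coding and untranslated sequence, and none held the first or the last exon of the transcript. Placed by coordinates on any transcript, the member circles had a median of 5 exons and 610.5 spliced bases, against 4 exons and 592 bases over all circRNA. Exon 2 was the first exon of the circle in 23.5% of the members and in 24.8% of all circRNA. The members thus stood close to the series as a whole in structure.

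The sequences that mark the best read circles are given here because only the fused junction tells a circle from the linear RNA. Each shows the last 30 bases of the downstream exon in lower case and the first 30 bases of the upstream exon in capitals, read on the strand of the gene.
Rapgef4 exons 7 to 10, chr2:72174423-72180103: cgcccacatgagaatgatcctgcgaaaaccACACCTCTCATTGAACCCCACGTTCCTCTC
Rapgef4 exons 7 to 29, chr2:72174423-72242792: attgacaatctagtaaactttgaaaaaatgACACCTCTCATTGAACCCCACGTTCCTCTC
Akap10 exons 2 to 5, chr11:61909848-61922829: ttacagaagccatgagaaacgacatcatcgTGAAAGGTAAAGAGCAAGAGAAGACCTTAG
Pde8a exons 7 to 9, chr7:81300640-81306783: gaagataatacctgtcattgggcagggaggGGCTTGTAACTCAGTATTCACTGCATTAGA
Prkar2b exons 5 to 10, chr12:31962999-31976025: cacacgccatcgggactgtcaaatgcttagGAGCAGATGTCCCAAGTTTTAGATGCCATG
Rapgef6 exons 2 to 6, chr11:54543579-54568496: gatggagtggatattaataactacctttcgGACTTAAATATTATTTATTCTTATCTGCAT
Pde5a exon 2, chr3:122747889-122748477: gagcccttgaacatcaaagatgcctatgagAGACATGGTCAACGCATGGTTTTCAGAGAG
Akap2 exon 3 of 5, chr4:57854562-57857037: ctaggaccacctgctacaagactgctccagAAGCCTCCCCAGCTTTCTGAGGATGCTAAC
Akap2 exon 2 of 4, chr4:57883024-57883202: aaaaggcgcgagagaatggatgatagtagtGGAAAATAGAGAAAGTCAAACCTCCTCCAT
The Rapgef4 circles differ before the junction and share the capitals after it. The start of exon 7 was used by 12 of the 15 Rapgef4 circRNA, which held 676 of the 696 reads. Likewise the start of exon 2 served 5 of 10 Akap7 circRNA (553 of 604 reads) and 9 of 28 Akap10 circRNA (254 of 384 reads), and the start of exon 5 served 7 of 19 Prkar2b circRNA (223 of 277 reads).

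The first comparison asked how the linear RNA of the members differed between 4-h post-hCG and 0-h. For each gene the junction with the highest linear total stood for the gene, and 34 of the 43 members passed the filter on low counts. Of these, 10 were higher and 4 lower at 4-h post-hCG (edgeR quasi-likelihood test, adjusted p up to 0.1 by Benjamini-Hochberg over 6981 genes, with a change of 1.5-fold or more). Over all genes tested, 12.8% were higher and 12.4% lower, 25.2% in all. Prkg2 and Pde4d passed the filter only through their 4-h post-hCG libraries, so the count of higher members is a description. The median log2 fold change was -0.06 over the 34 members and 0.00 over all genes. The 4-h post-hCG and 0-h mice did not overlap in 19 of the 34 members, a pattern that 40.6% of all genes had. The 9 members that did not pass were Adcy1, Adcy10, Akap17b, Pde11a, Pde3b, Pde4a, Pde6a, Pde8b and Prkg1. Their linear totals over 6 libraries lay at or below 59 counts.

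**Figure D1:**
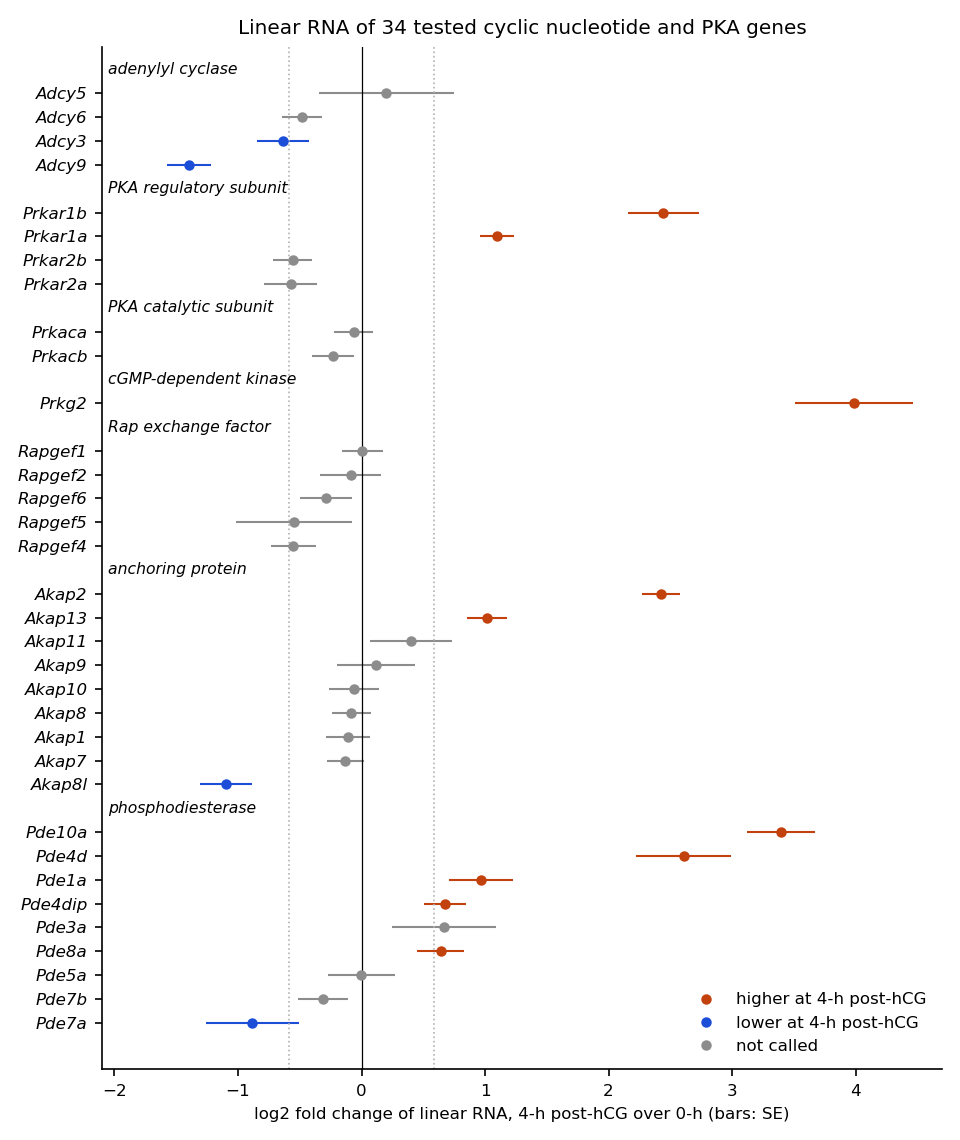
Log2 fold change of linear RNA (4-h post-hCG over 0-h, x axis) of the 34 member genes tested, grouped by role, with bars for the SE and dotted lines at 1.5-fold. The 10 genes called higher reach 3.99 (Prkg2), the 4 called lower reach -1.40 (Adcy9), and no Rap exchange factor and no PKA catalytic subunit was called. Prkg2 and Pde4d passed the filter on low counts only through their 4-h post-hCG libraries.

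Among the adenylyl cyclases, which make cyclic AMP, the linear RNA of Adcy9 and Adcy3 fell and none rose. Adcy9, a membrane cyclase, had 107, 167 and 117 CPM (TMM-normalised linear counts, scaled to the library size) in the 4-h post-hCG mice, against 347, 300.3 and 387 CPM in the 0-h mice. The groups were far apart, with a log2 fold change of -1.40 (SE 0.18, adjusted p = 2.6e-06, edgeR). All 10 Adcy9 junctions were called lower, with log2 fold changes of -1.60 to -1.38. Many of them share an end and so linear reads, as do junctions of other genes below. Adcy3, another membrane cyclase, had 47.6, 85.0 and 61.5 CPM at 4-h post-hCG, against 97.8, 98.2 and 106 CPM at 0-h. Its mice did not overlap either, but the change was smaller (log2 fold change -0.63, SE 0.21, adjusted p = 0.029, edgeR). Adcy3 was no longer called without the first 4-h post-hCG mouse (log2 fold change -0.44, adjusted p = 0.16, edgeR) or at its other junction (-0.46, adjusted p = 0.12, edgeR). Adcy6 was under the fold limit (log2 fold change -0.48, SE 0.16), and Adcy5, at 10.2 CPM on average at 4-h post-hCG and 8.72 CPM at 0-h, gave 0.20 (SE 0.55).

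Among the regulatory subunits of PKA, the type I subunits Prkar1a and Prkar1b rose, and the type II subunits Prkar2a and Prkar2b lay just under the fold limit on the lower side at the junction standing for the gene. Prkar1a had 717, 750 and 729 CPM at 4-h post-hCG, against 370.1, 335 and 323 CPM at 0-h. The mice of each group were close to each other and the groups well apart (log2 fold change 1.09, SE 0.14, adjusted p = 2.8e-06, edgeR), and all 4 Prkar1a junctions were called higher. Prkar1b had 72.1, 53.4 and 63.8 CPM at 4-h post-hCG, against 13.5, 10.99 and 10.03 CPM at 0-h. The change was large against the spread of the mice, with a log2 fold change of 2.44 (SE 0.29, adjusted p = 9.1e-07, edgeR). At the other Prkar1b junction, exons 2 to 6 of 11, the log2 fold change was 1.29 (SE 0.32).

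Prkar2b had the most linear counts of all members. It had 1625, 1360 and 1539 CPM at 4-h post-hCG, against 2121, 2755 and 1782 CPM at 0-h. The groups did not overlap and the adjusted p was 0.013, but the log2 fold change of -0.56 (SE 0.16, edgeR) stayed under 1.5-fold. Prkar2a had 40.7, 49.4 and 58.1 CPM at 4-h post-hCG, against 66.6, 81.3 and 70.2 CPM at 0-h, a log2 fold change of -0.57 (SE 0.21, adjusted p = 0.051, edgeR). At single junctions, 2 of 19 of Prkar2b were called lower (-0.61 and -0.64, adjusted p = 0.0051 and 0.0026, edgeR). Neither subunit was called at the junction standing for it, though each crossed the fold limit in some alternatives, Prkar2b at the junction with the median linear total among them (-0.59). The catalytic subunits gave -0.06 (SE 0.16) for Prkaca and -0.23 (SE 0.17) for Prkacb on the log2 scale, so that a change of 1.5-fold lay more than 2 SE from either value.

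Prkg2, which encodes the membrane-bound cyclic GMP-dependent kinase, had the largest linear change of the members at the junctions standing for the genes. Its levels were 66.0, 31.6 and 37.6 CPM at 4-h post-hCG, against 2.53, 1.46 and 4.56 CPM at 0-h. Each 4-h post-hCG mouse stood well above each 0-h mouse (log2 fold change 3.99, SE 0.48, adjusted p = 1.2e-06, edgeR). The 0-h values rest on 3, 2 and 5 counts, and the gene passed the filter through its 4-h post-hCG libraries. Its other junction, exons 3 to 14 of 19, gave 3.65 (SE 0.51). The related Prkg1 had 16 linear counts in all and was not tested.

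**Figure D2:**
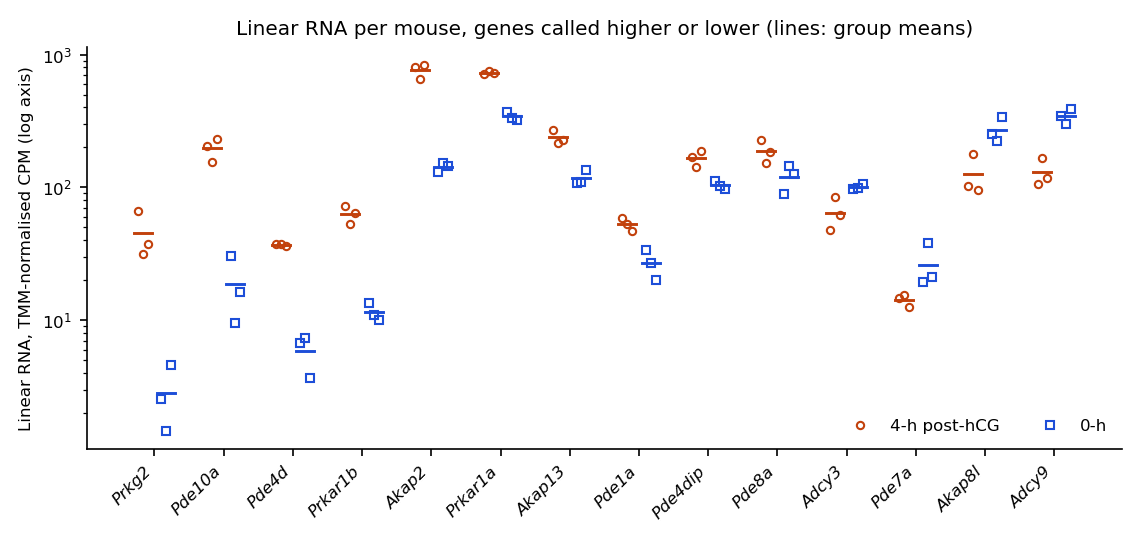
Linear RNA per mouse (TMM-normalised CPM, log axis) of the 14 member genes called higher or lower, with 4-h post-hCG mice as circles left of 0-h mice as squares and lines at the group means. The groups do not overlap in any of the 14, and the fitted fold change is largest for Prkg2 (15.9) and Pde10a (10.6).

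The phosphodiesterases that break down cyclic nucleotides changed one by one. Pde10a, which acts on cyclic AMP and cyclic GMP, had 203, 156 and 231 CPM at 4-h post-hCG, against 30.4, 9.52 and 16.4 CPM at 0-h. This was a rise of 3.40 on the log2 scale (SE 0.27, adjusted p = 2.6e-09, edgeR). All 11 Pde10a junctions were called higher, 10 of them between 2.68 and 3.39. At exons 2 to 3 of a 5-exon transcript the value was 4.67 (SE 0.31). The 0-h mice had 5, 4 and 7 counts there, and that junction passed the filter only through its 4-h post-hCG libraries.

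Pde4d, which is specific for cyclic AMP, had 37.6, 37.2 and 36.4 CPM at 4-h post-hCG, against 6.74, 7.32 and 3.65 CPM at 0-h. The 4-h post-hCG mice were nearly equal and the groups were far apart (log2 fold change 2.61, SE 0.39, adjusted p = 2.2e-05, edgeR). The 0-h values rest on 8, 10 and 4 counts, and Pde4d, like Prkg2, passed the filter only through its 4-h post-hCG libraries. Pde1a, which calcium and calmodulin activate, had 59.1, 52.6 and 46.7 CPM at 4-h post-hCG, against 33.7, 27.1 and 20.1 CPM at 0-h (log2 fold change 0.97, SE 0.26, adjusted p = 0.0081, edgeR). Along Pde1a the change was uneven, with 1.49 (SE 0.37) over exons 2 to 13 of 15 and 0.20 (SE 0.37) over exons 7 to 10. With the junction of the median linear total, Pde1a was not called (0.19, adjusted p = 0.76, edgeR).

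Pde8a, a cyclic AMP phosphodiesterase of high affinity, had 226, 154 and 184 CPM at 4-h post-hCG, against 89.4, 146 and 126 CPM at 0-h. It was called higher with a log2 fold change of 0.64 (SE 0.19, adjusted p = 0.016, edgeR). That value came from exons 10 to 11, the only 1 of 13 Pde8a junctions that was called. The others lay between -0.07 and 0.48, and the junction with the median linear total gave 0.10 (adjusted p = 0.75, edgeR). The call also ended without the first 4-h post-hCG mouse (0.48) and without the first 0-h mouse (0.47).

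Pde7a, another cyclic AMP phosphodiesterase, had 14.6, 15.4 and 12.5 CPM at 4-h post-hCG, against 19.4, 38.1 and 21.0 CPM at 0-h. The groups were apart but the 0-h mice varied (log2 fold change -0.88, SE 0.37, adjusted p = 0.085, edgeR). Without the second 0-h mouse the change was -0.50 (adjusted p = 0.45, edgeR), and Pde7a also lost its call in DESeq2 and without any of the 4-h post-hCG mice. Pde7b, its relative (-0.31, SE 0.20), and Pde3a, known for its role in oocytes (0.67, SE 0.42), were not called. Pde5a, which is specific for cyclic GMP, gave 0.00 (SE 0.27), near the lower end of its 13 junctions, which reached 1.02 with a median of 0.31 and of which 1 was called higher.

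Pde4dip is named for its binding of PDE4D but encodes myomegalin, a scaffold of the centrosome and Golgi and no phosphodiesterase. At the junction that stood for the gene, exons 2 to 10 of a 17-exon transcript, it had 169, 143 and 187 CPM at 4-h post-hCG, against 111, 102 and 97.6 CPM at 0-h. That was a rise of 0.68 on the log2 scale (SE 0.17, adjusted p = 0.0050, edgeR). The 5 junctions that start at this exon 2, which is also exon 9 of a 47-exon transcript, gave 0.52 to 0.80 and share its reads.

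The other 4 Pde4dip junctions gave far larger values, and each has at least 1 end in exons 2 to 8 or 36 to 38 of the 47-exon transcript. At exons 5 to 8 the linear counts were 85, 64 and 100 at 4-h post-hCG, against 0, 2 and 7 at 0-h (log2 fold change 4.86, SE 0.46, adjusted p = 2.9e-10, edgeR over 40108 junctions). At exons 2 to 3 they were 13, 16 and 35 at 4-h post-hCG, against none in the 0-h mice, at least 20.1-fold higher against a floor of 3 counts over the 0-h group. At exons 36 to 38 they were 37, 45 and 50 at 4-h post-hCG, against 3, 4 and 3 at 0-h. These 4 junctions passed the filter on low counts only through their 4-h post-hCG libraries, so their values are a description.

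Expressed as a share of the count at the junction standing for the gene, exons 5 to 8 had 38.6, 36.4 and 61.0% at 4-h post-hCG, against 0, 1.44 and 6.54% at 0-h. The groups do not overlap, and the two-sided exact permutation test gave p = 0.1, the smallest that 3 mice against 3 allow. At exons 9 to 25 the same ratio was 63.4 ± 6.36% at 4-h post-hCG and 59.4 ± 4.31% at 0-h (SD, n = 3 each, exact permutation p = 0.5). That junction shares an end, and so linear reads, with the junction standing for the gene, which in part holds its ratio steady. The junction of exons 5 to 8 shares no end with it, so these ratios are not alike. This comparison within the gene was chosen after its values were seen.

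**Figure D3:**
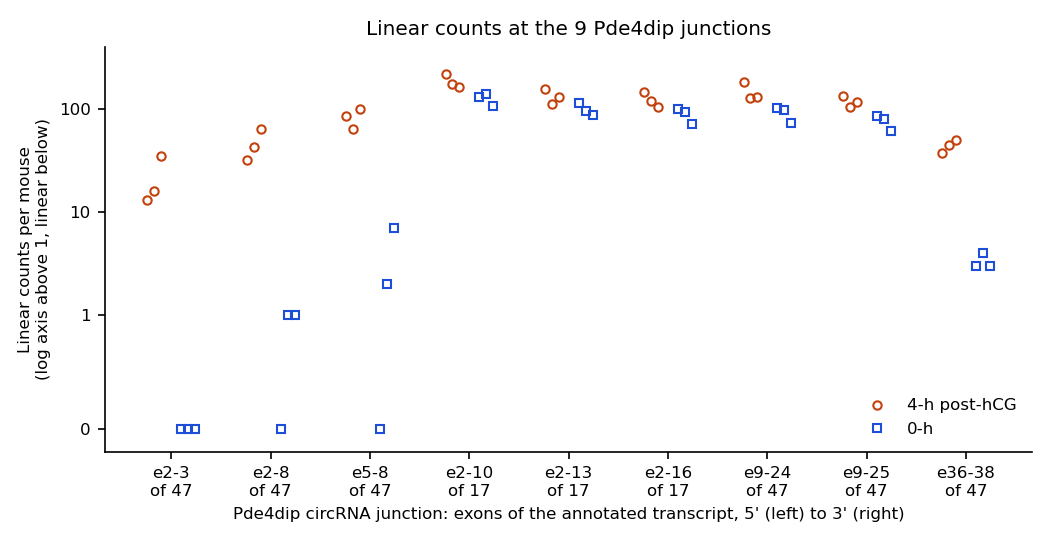
Linear counts per mouse at the 9 Pde4dip junctions, ordered 5′ to 3′ by their exons in the annotated transcript (y axis logarithmic above 1 count and linear below), 4-h post-hCG as circles left of 0-h as squares. At exons 2 to 8 and 36 to 38 of 47 the 0-h mice lie between 0 and 7 counts and the 4-h post-hCG mice between 13 and 100, while the 5 other junctions differ by 0.52 to 0.80 on the log2 scale.

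Among the anchoring proteins, Akap2 and Akap13 rose and Akap8l fell. Akap2 had 813, 655 and 831 CPM at 4-h post-hCG, against 132, 152 and 144 CPM at 0-h, a clear gap (log2 fold change 2.42, SE 0.16, adjusted p = 5.8e-11, edgeR). All 7 Akap2 junctions were called higher, from 1.80 to 2.87, the largest at the coding exon of chr4:57883024-57883202. Each of them also names the readthrough gene Gm20459, which joins Palm2 and Akap2, and their reads cannot be told apart here.

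Akap13, which anchors PKA, had 270.1, 215 and 228 CPM at 4-h post-hCG, against 107, 111 and 136 CPM at 0-h. The groups were well apart (log2 fold change 1.02, SE 0.16, adjusted p = 6.6e-05, edgeR). Of its 24 junctions 23 were called higher, from 0.68 to 1.47, and the remaining one, exons 2 to 4 of 37, gave 0.47 (SE 0.26). Akap8l, a nuclear relative of the anchoring protein Akap8, had 103, 180 and 95.6 CPM at 4-h post-hCG, against 251, 224 and 341 CPM at 0-h. The log2 fold change was -1.10 (SE 0.21, adjusted p = 0.00046, edgeR), and 3 of its 5 junctions were called lower. Akap8 itself gave -0.08 (SE 0.16). The other anchoring proteins tested, Akap1 and Akap10 of mitochondria, Akap7 of membranes, Akap9 of the centrosome and Golgi, and Akap11, lay between -0.13 and 0.40 and were not called. At single junctions, the 10 of Akap7 lay between -0.60 and -0.14 with a median of -0.26, and 1 was called lower. Akap11 (0.40, SE 0.33) was called higher without the second 0-h mouse (1.12, adjusted p = 0.012, edgeR).

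Of the 5 Rap exchange factors none was called at its representative junction. Rapgef4 encodes EPAC2, which cyclic AMP activates by direct binding. It had 249, 147 and 173 CPM at 4-h post-hCG, against 322, 242 and 275 CPM at 0-h, groups that overlap (log2 fold change -0.55, SE 0.18, adjusted p = 0.028, edgeR). At single junctions 13 of 15 were called lower, from -0.92 to -0.61, but 12 of the 15 share the start of exon 7 and so its reads. Rapgef1, Rapgef2 and Rapgef6 lay between -0.29 and 0.01, and Rapgef5, with 10.1 CPM on average at 4-h post-hCG and 14.98 CPM at 0-h, gave -0.54 (SE 0.47). The 13 Rapgef6 junctions lay between -0.31 and 0.54 with a median of 0.16, and none was called. Over all member junctions, 63 of the 238 that passed the filter were called higher and 31 lower, against 12.4% and 12.2% of all junctions, and these counts follow the genes that give many junctions. Some of the higher ones passed the filter only through their 4-h post-hCG libraries.

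Other genes of the pathway were read from a list of 77 names, of which 41 were tested, 13 higher and 2 lower at 4-h post-hCG, where 12.8% of all genes were higher and 12.4% lower. Npr3, Creb5, Crem and Bves passed the filter on low counts only through their 4-h post-hCG libraries, so the counts of higher genes are a description. In the list for cyclic GMP synthesis, 2 of 4 genes were higher, the natriuretic peptide receptors Npr3 and Npr1. Npr3, the clearance receptor, which makes no cyclic GMP, averaged 147 ± 48.1 CPM at 4-h post-hCG and 2.88 ± 2.95 CPM at 0-h (SD, n = 3 each), with a log2 fold change of 5.68 (SE 0.43). Its 0-h libraries held 7, 0 and 3 counts. Npr1, a guanylyl cyclase receptor, averaged 853 ± 160 CPM at 4-h post-hCG and 35.7 ± 13.8 CPM at 0-h (log2 fold change 4.58, SE 0.22). Npr2, the receptor of C-type natriuretic peptide, had 226 ± 48.3 CPM at 4-h post-hCG and 332 ± 73.3 CPM at 0-h and was not called.

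Of the CREB family and its partners, 3 of 14 were higher and 1 lower, and like the other lists of few genes this is set against the same shares of all genes. The transcription factors Creb5 (log2 fold change 4.56, SE 0.65, on 0, 4 and 0 counts at 0-h) and Crem (3.26, SE 0.31) and the kinase Sik1 (2.02, SE 0.25), which restrains the CREB coactivators, rose. The coactivator Crtc3 fell (-0.85, SE 0.22), and Creb1 itself gave 0.10 (SE 0.16). Both genes tested among PKA relatives were higher, Bves, a membrane protein that binds cyclic AMP, by 2.39 (SE 0.41) and Prkx by 1.71 (SE 0.25). Receptors and G proteins gave 3 higher and 1 lower of 10. The higher ones were Gnai1 (1.66, SE 0.39), Gnas (0.97, SE 0.14) and Gnai3 (0.83, SE 0.21). The lower one was Fshr, the receptor of follicle-stimulating hormone (-1.38, SE 0.18). Lhcgr, the receptor of luteinizing hormone, was not called (0.07, SE 0.19). Phosphatases gave 2 higher of 4, Ppp3ca (1.84, SE 0.18) and Ppp2r2a (0.85, SE 0.31). Rap GTPases and their regulators gave 1 higher of 5, Sipa1l2 (1.98, SE 0.19), and channels and exporters none of 2.

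Promoters were examined for the motif of CREB, a transcription factor that PKA phosphorylates. The RefSeq promoter table (GRCm38.p6, 250 bases before to 50 after each start) held 68 promoters of 36 members. The palindrome TGACGTCA was found in 2 of the 68, and in 1.8% of all promoters. Both are Prkar1a windows that overlap and hold the same bases, so this is 1 match in the genome. The shorter TGACG, or CGTCA on the other strand, which the palindrome holds on both strands, was found in 22.1% of member promoters and 20.8% of all promoters. It was in 6 of the 22 promoters of members called higher, 2 of the 4 of members called lower and 5 of the 28 of members tested and not called. The 6 include the overlapping Prkar1a windows. Counted by gene, the shorter motif was in 4 of 8, 2 of 3 and 5 of 18, and in 6228 of 27025 genes over all promoters. A match is a description of these letters and not a binding site. The Prkar1a bases before the start whose window holds the palindrome, chr11:109650699-109650948, plus strand, are shown with the matches in capitals:
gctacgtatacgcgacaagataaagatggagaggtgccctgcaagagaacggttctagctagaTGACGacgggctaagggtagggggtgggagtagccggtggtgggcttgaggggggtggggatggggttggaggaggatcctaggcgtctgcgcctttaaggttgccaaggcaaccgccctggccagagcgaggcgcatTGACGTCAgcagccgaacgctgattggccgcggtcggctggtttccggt

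The next comparison asked whether the circRNA of these genes differed between the time points. Of the 264 member circRNA, 14, from 8 genes, reached 100 CPM of circRNA reads in at least 3 libraries and were tested among 1658 abundant circRNA. None of the 14 was called, where 1.21% of all were (edgeR quasi-likelihood test). At an unadjusted p under 0.05 there were 2, where 6.82% of all were, and DESeq2 called none. The mice did not overlap in 3 of the 14, where 11.5% of all did not. The median log2 fold change was 0.02 over the 14 and 0.03 over all. Values below are TMM-normalised CPM of back-splice reads at junctions that name a gene.

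The Rapgef4 circle of exons 7 to 10 was the most read of all members and was lower at 4-h post-hCG in every mouse, though not called. It had 482, 465 and 438 CPM at 4-h post-hCG (76, 64 and 52 reads), against 757, 621 and 666 CPM at 0-h (123, 105 and 81 reads). The log2 fold change was -0.56 (SE 0.25, adjusted p = 0.66, edgeR). The longer circle of exons 7 to 29, built on the same exon 7, had 102, 102 and 160.2 CPM at 4-h post-hCG, against 117, 130.1 and 140 CPM at 0-h, groups that overlap.

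The 3 Akap7 circles all start at exon 2. That of exons 2 to 5 had 425, 305 and 337 CPM at 4-h post-hCG, against 363, 319 and 345 CPM at 0-h, with no shift between the groups (log2 fold change 0.06, SE 0.30). That of exons 2 to 7 had 159, 109 and 185 CPM at 4-h post-hCG, against 252, 260.2 and 230.2 CPM at 0-h, lower in every mouse but not called (-0.72, SE 0.37, adjusted p = 0.74, edgeR). Akap10 exons 2 to 5 had 102, 160 and 194 CPM at 4-h post-hCG, against 178, 319 and 238 CPM at 0-h, and these overlap (-0.71, SE 0.37).

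Prkar2b exons 5 to 10 varied much among mice. It had 279, 174 and 135 CPM at 4-h post-hCG, against 86.2, 201 and 41.1 CPM at 0-h (log2 fold change 0.81, SE 0.42). The Pde8a circle of exons 7 to 9 had 203, 167 and 177 CPM at 4-h post-hCG, against 246, 189 and 206 CPM at 0-h (-0.22, SE 0.36), a difference within the spread of the mice. Rapgef6 exons 2 to 6 lay at 159, 174 and 169 CPM at 4-h post-hCG, against 148, 136 and 148 CPM at 0-h, higher in every mouse by a small step (0.22, SE 0.40).

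Neither Akap2 circle was called. The circle of 1 exon at chr4:57883024-57883202 had 57.1, 239.9 and 185 CPM at 4-h post-hCG, against 24.6, 65.0 and 74.0 CPM at 0-h. Its log2 fold change of 1.55 (SE 0.52, adjusted p = 0.22, edgeR) was the largest among the 14 and missed the threshold. Without the first 4-h post-hCG mouse, the lowest of its group, it was called (1.98, adjusted p = 0.023, edgeR). The circle of the large exon at chr4:57854562-57857037 had 127, 43.6 and 109.6 CPM at 4-h post-hCG, against 92.3, 94.6 and 98.6 CPM at 0-h (-0.02, SE 0.51). The single-exon circle of Pde5a had 12.7, 153 and 25.3 CPM at 4-h post-hCG, against 86.2, 106 and 132 CPM at 0-h, so that 1 mouse held most of the reads of the 4-h post-hCG group (21 of 26).

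**Figure D4:**
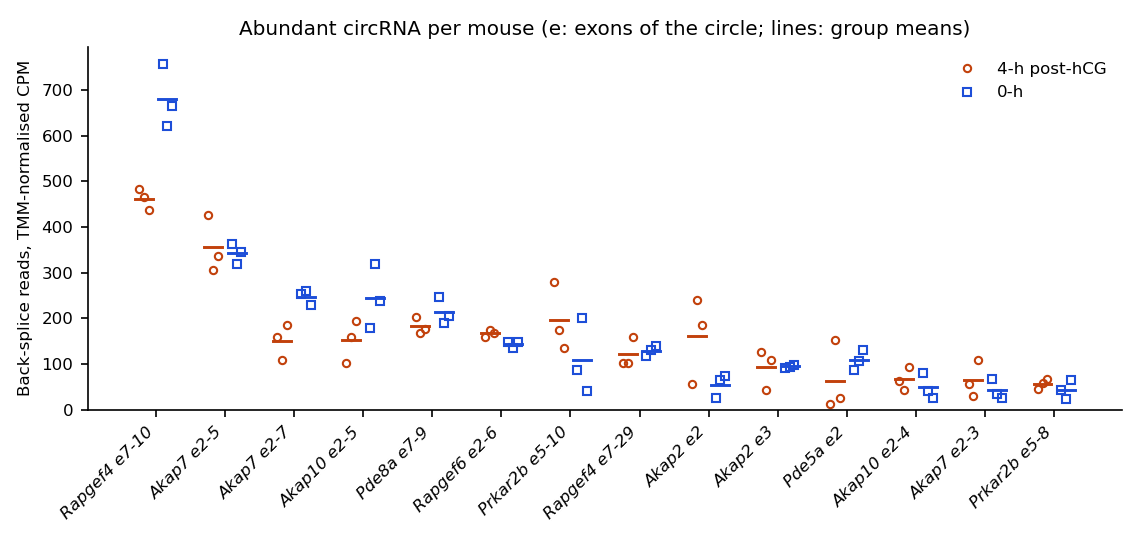
Back-splice reads per mouse (TMM-normalised CPM) of the 14 abundant member circRNA, labelled by gene and by the exons (e) of the circle in its annotated transcript, 4-h post-hCG as circles left of 0-h as squares, lines at the group means. The groups overlap in 11 of the 14 and are apart for Rapgef4 exons 7 to 10, Akap7 exons 2 to 7 and Rapgef6 exons 2 to 6.

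Summing the circRNA reads of each gene gave 10 members enough reads for a test. Again none was called, where 1.53% of 1630 genes were (edgeR), and DESeq2 called none. At an unadjusted p under 0.05 there were 5, where 7.98% of all genes were, and the mice did not overlap in 4, where 12.8% of all did not. The largest value was that of Pde10a, with 104, 72.1 and 108 CPM at 4-h post-hCG, against 43.7, 6.03 and 50.3 CPM at 0-h. The groups were apart (log2 fold change 1.54, SE 0.70, adjusted p = 0.53, edgeR), on 54 reads in all. Pde10a passed the filter on low counts only through its 4-h post-hCG libraries, so its place in the counts above is a description. Rapgef4 had 613, 664 and 717 CPM at 4-h post-hCG, against 1037, 886 and 880 CPM at 0-h (-0.50, SE 0.21, adjusted p = 0.44, edgeR). Akap2 (0.67, SE 0.34) and Akap13 (0.56, SE 0.52) were also apart, both higher at 4-h post-hCG. The share of all circRNA reads that fell on members was 0.646 ± 0.0237% at 4-h post-hCG and 0.699 ± 0.0413% at 0-h (SD, n = 3 each, two-sided exact permutation p = 0.2).

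**Figure D5:**
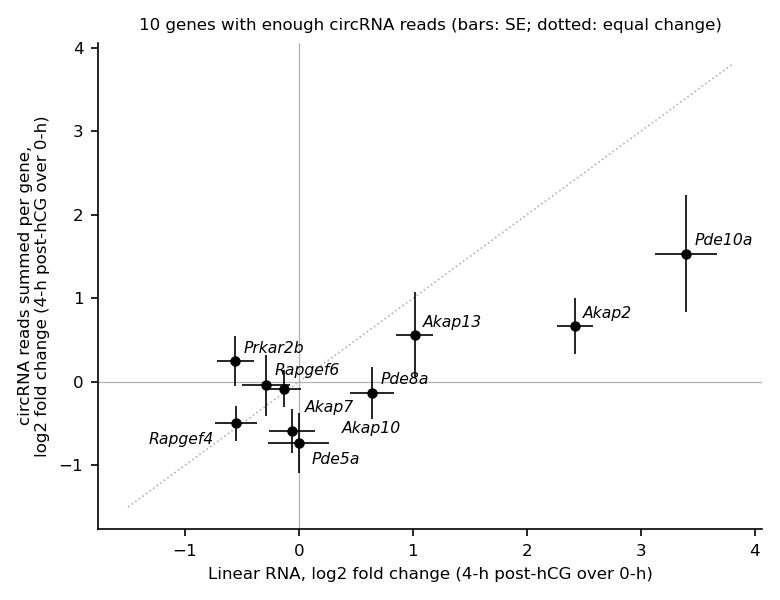
Log2 fold change (4-h post-hCG over 0-h) of summed circRNA reads (y axis) against that of linear RNA (x axis) for the 10 member genes with enough circRNA reads, bars for SE, dotted line for equal change. Pde10a (1.54 circular, 3.40 linear) and Akap2 (0.67 and 2.42) lie below the line, and Rapgef4 (-0.50 and -0.55) close to it. Prkar2b (0.25 circular, -0.56 linear) lies above the line.

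The last comparisons set circular against linear counts of the same junction. The 12 columns were scaled together, so a circRNA called higher has more back-splice reads per linear count than is typical of the abundant circRNA. At 4-h post-hCG 6 of the 14 members were called higher (32.9% of all) and 5 lower (35.3% of all). At 0-h 7 were called higher (32.8% of all) and 5 lower (34.6% of all). With the mouse as a block, the counts of members called each way were the same at both times. By reads as counted, none of the 14 had more back-splice reads than linear counts. The linear counts add up over both ends of a junction, whereas a back splice is counted once. The reads per linear count below therefore do not show that linear RNA outnumbered each circle.

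Rapgef4 exons 7 to 10 had 0.505 back-splice reads per linear count at 4-h post-hCG and 0.463 at 0-h, the highest at 4-h post-hCG among the 14. Akap10 exons 2 to 5 had 0.308 at 4-h post-hCG and 0.56 at 0-h. At the low end, Prkar2b exons 5 to 8 had 0.0053 at 4-h post-hCG and 0.00276 at 0-h. Prkar2b exons 5 to 10 had 0.0175 at 4-h post-hCG and 0.00712 at 0-h. Linear counts thus outnumbered back-splice reads least at Rapgef4 and most at Prkar2b among the 14 at 4-h post-hCG.

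The change of the ratio was called for 1 of the 14, where 2.53% of all were called (edgeR, the interaction in the model of 12 columns). This was Akap2 at chr4:57854562-57857037. Its linear counts were 1060, 809 and 730 at 4-h post-hCG, against 156, 208 and 158 at 0-h, while its back-splice reads were 20, 6 and 13 at 4-h post-hCG, against 15, 16 and 12 at 0-h. The linear RNA was higher in every mouse and the circle was not, and the ratio fell to 0.015 at 4-h post-hCG, against 0.0824 at 0-h. The log2 change of the ratio was -2.41 (SE 0.42, adjusted p = 0.0011, edgeR). For Akap2 at chr4:57883024-57883202, where circle and linear RNA both had more reads at 4-h post-hCG, it was -1.30 (SE 0.56, adjusted p = 0.29, edgeR). The largest change the other way was that of Prkar2b exons 5 to 10 (1.33, SE 0.42, adjusted p = 0.11, edgeR), which missed the threshold and crossed it in DESeq2 and with the mouse as a block.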

How the data were processed

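RNA of mural granulosa cells from 6 mice was sequenced as stranded total RNA. The authors mapped the reads to GRCm38 and deposited raw counts, back-splice reads and linear counts per junction and library, found with TopHat-Fusion and CIRCexplorer by the study's methods. For the linear counts, the counting method is not given in the sources read. The 4-h post-hCG libraries held 141778 to 186630 back-splice reads and the 0-h libraries 158325 to 194450. Junctions that name no gene (15.6 to 18.9% of back-splice reads) were kept out of the tests. A second deposited table with the authors' own fold changes and p-values was not used.

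The members and gene lists were chosen with earlier results of these data known. Genes named were those called in linear RNA, circRNA that reached 100 CPM in 3 libraries, the genes with the most back-splice reads and, for the pathway list, the called genes. Npr2, Creb1 and Lhcgr of that list were named beside them although not called. Counts were tested over the whole table with edgeR 4.0.16 (quasi-likelihood, TMM, Benjamini-Hochberg) in R 4.3.3, with calls made at 1.5-fold and an adjusted p up to 0.1. SE is the log2 fold change divided by the square root of F. DESeq2 1.42.0, other scalings, filters, representative junctions, a replicate block and leaving out each mouse were alternatives. The junction comparison within Pde4dip was chosen after seeing the data. The tests were tried on simulated counts. Exons were placed on GENCODE M21, and sequences came from GRCm38.p6 and RefSeq.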

Additional observations from a re-analysis of the deposited data

Results flagged for a closer look

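Besides the circRNA, the table holds back-splice junctions with no type, and 1166 of these, with 2368 reads, name a member gene. Of the 22 members with at least 20 such reads, Akap2 was the one in which every 4-h post-hCG library had more reads, scaled to library size, than every 0-h library, a signal in data that no comparison above uses. Its 140 untyped junctions had 172 reads at 4-h post-hCG (72, 50 and 50 in the 3 libraries) and 69 at 0-h (27, 19 and 23). 1 other member showed the opposite order. Of all 4542 gene names with at least 20 such reads, 7.16% had every 4-h post-hCG library above and 9.78% every one below, so 2 of 22 is near the background. Linear RNA at the Akap2 junctions was higher at 4-h post-hCG too, and its part in these reads was not tested.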

How the results depend on the processing

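Of the 14 members called in linear RNA, 10 kept their call in every alternative that tested them, and the exceptions were Adcy3, Pde1a, Pde7a and Pde8a. The count of members called was 13 to 14 under other settings and 13 to 16 when a mouse was left out. The value of Pde4dip ranged from 0.58 to 4.87 on the log2 scale with the junction read. At single junctions 92 to 97 members were called under other settings, against 94, and 85 to 109 when a mouse was left out. No abundant circRNA among the members was called under other settings, and 0 to 1 when a mouse was left out (1 without the first 4-h post-hCG mouse). For circRNA summed per gene the count was 0 throughout. The change of the ratio was called for 1 member, for 0 at a minimum of 200 CPM and with CPM over all junctions, which leave the Akap2 circle out of the test, for 2 in DESeq2, with the replicate block and with the mouse as a block, and for 1 to 4 when a mouse was left out (4 without the second 4-h post-hCG mouse). Circular against linear at 4-h post-hCG gave 11 called members, 5 at a minimum of 200 CPM, 4 with CPM over all junctions and 10 to 12 when a mouse was left out. At 0-h it gave 12 called members, 6 at a minimum of 200 CPM, 5 with CPM over all junctions and 11 to 12 when a mouse was left out. Both stricter settings tested fewer circRNA. With reads as counted all 14 members were below their linear counts, which add up over both ends, at both times. The replicate numbers in the sample titles did not pair the mice (correlations of the deviations in linear RNA of 0.02, -0.12 and -0.01 between samples of the same number), and with the replicate block 13 members were called in linear RNA, 93 junctions were called, and the calls of circRNA did not change. Depth limits the circRNA, since 81 of 264 had 1 read.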
